A study of Mus musculus with 6 samples.

Results

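The keratin gene family was examined in cultured mouse keratinocytes that lacked *Sox4*, *Sox11* or both. Members were the probes whose RefSeq accession belonged to a mouse gene named Krt followed directly by a number, which leaves out the keratin-associated proteins. They came to 64 probes for 53 genes, of 55681 probes and 21368 named genes on the array, and 11 of the 53 genes had more than 1 probe. Of the 53 genes, 28 encode type I and 25 type II keratins. Each gene is given by its brightest probe, and its other probes are mentioned where they disagree.

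Keratinocytes, which make up most of the epidermis, were cultured as primary cells from newborn pups. The pups came from floxed mice of a mixed 129SvEx:C57BL/6 background crossed to a Cre line of FVB/N mice. The cells were grown on J2 feeder cells and then passaged without them. Each of 6 two-colour arrays set RNA of 1 knockout culture against wild-type RNA. There were 2 arrays for each of 3 genotypes, Sox4 cKO, Sox11 cKO and the double knockout (dcKO), and the labels call them biological replicates. The dyes were swapped between replicates, with knockout RNA in red (Cy5) on the first array of a genotype and in green (Cy3) on the other. Per the study's methods, the floxed *Sox4* and *Sox11* alleles were deleted by Krt14-Cre, a recombinase driven by the promoter of the basal keratin *Krt14*, from an FVB/N line. The floxed stock also carried a *Sox12* deletion, and the labels do not give the *Sox12* state of the cultures. They also do not say whether wild-type RNA came from separate cultures. If it did not, the p-values measure a spread that is partly technical.

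Keratins are the intermediate filament proteins of epithelia. A type I and a type II keratin pair in every filament, and each kind of epithelium uses its own pairs. In skin, *Krt5* and *Krt14* mark the dividing basal layer and *Krt1* and *Krt10* the layers above it. *Krt6a*, *Krt6b*, *Krt16* and *Krt17* are induced by wounding and in culture. *Krt8* and *Krt18* form the filaments of simple, single-layered epithelia and of the early embryonic ectoderm. Most other members are built into hair shafts and the sheaths around them.

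A level is given below as the log2 intensity of 1 channel of 1 array. A difference is given as the log2 ratio of knockout over wild type on the same array, and a log2 fold change is the mean of a genotype's 2 arrays. Levels of different genes come from different probes and cannot be set against each other. A gene was called changed at a limma adjusted p below 0.05, over all probes, and an absolute log2 fold change above 1.5. Between 35.2% and 42.9% of knockout spots and between 37.3% and 45.1% of wild-type spots were marked as well above background, and 0 were saturated. The brightest probe of *Sox4* fell by 2.52 on the log2 scale in both Sox4 cKO and dcKO cells. That of *Sox11* had log2 fold changes of -2.98 in Sox11 cKO and -3.43 in dcKO cells. All 4 of these were called, though a second *Sox11* probe was not called in Sox11 cKO cells (limma adjusted p = 0.0949).

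The cultures carried the keratins of basal and activated keratinocytes and few of those of hair. Over the 12 channels of the 6 arrays, 20 of the 53 genes were well above background in every channel, 17 in none and 16 in some. That is 37.7% in every channel and 32.1% in none, beside 47.6% and 32.5% of all named genes. All 3 basal keratins and all 4 stress keratins were detected in every channel, as were 4 of 5 simple epithelial keratins, *Krt7*, *Krt8*, *Krt18* and *Krt19*. Of 7 suprabasal epidermal keratins, 4 were detected throughout, *Krt2*, *Krt10*, *Krt78* and *Krt80*. *Krt1*, the partner of *Krt10*, was above background in only 2 channels. Of 14 hair shaft keratins 1, *Krt81*, was detected throughout, and 8 in no channel. Of 9 root sheath keratins 1, *Krt73*, was detected throughout, and 4 in no channel. Among mucosal and corneal keratins this held for *Krt13*, a keratin of the oral and oesophageal lining, of 4 genes. Type I and type II genes were alike in this count, at 10 of 28 and 10 of 25. Detection is that of the brightest probe. Among genes detected throughout, second probes of *Krt2* and *Krt222* were above background in no channel, and those of *Krt10* and *Krt13* only in some.

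**Figure D1:**
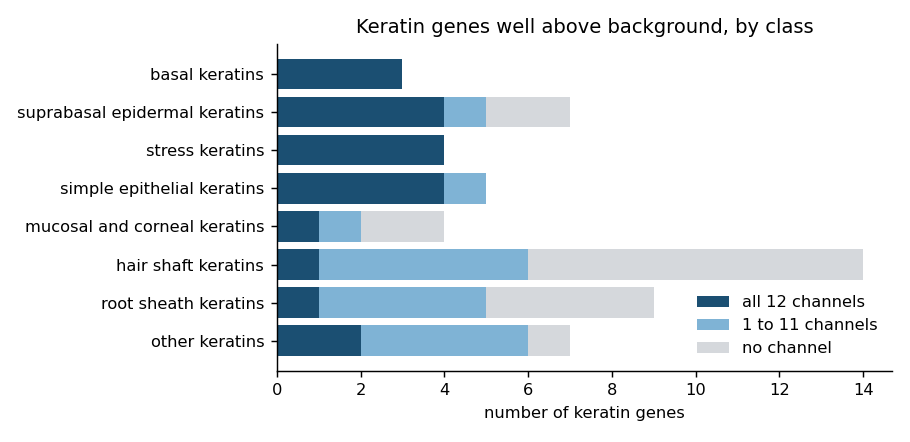
Number of keratin genes of each class whose brightest probe was well above background in all 12 channels (dark), in 1 to 11 channels (light) or in no channel (grey). All 3 basal and all 4 stress keratins were detected throughout, against 1 of 14 hair shaft and 1 of 9 root sheath keratins.

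Few markers of fibroblasts and Merkel cells were above background, and some of melanocytes and immune cells were. Of 9 fibroblast markers, 0 to 2 were above background in any channel, and their summed log2 level ran from 8.12 to 8.36 in knockout and from 8.06 to 8.23 in wild-type channels. Of 5 Merkel cell markers 0 or 1 were above background, and these neuroendocrine cells of the skin are the ones known for *Krt8*, *Krt18* and *Krt20*. Of 8 melanocyte markers 2 to 4 were above background, with a summed log2 level of 10.25 in the wild-type channel of Sox11 cKO replicate 2 and 8.45 to 9.19 in all other channels. Of 6 immune cell markers 2 or 3 were above background, 2 of them in all 12 channels. Their summed log2 level ran from 9.77 to 10.30 in knockout and from 9.84 to 10.38 in wild-type channels. No gene of these 4 lists was called in any of the 3 genotypes.

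Few keratins were called in any genotype. RNA came from whole cultures, so fewer cells of a type and less RNA per cell cannot be told apart. In dcKO cells 2 of the 53 genes were called, *Krt18* lower and *Krt7* higher, beside 1.39% of all named genes. In Sox4 cKO cells 2 were called, *Krt90* higher and *Krt15* lower, beside 0.159% of all named genes. In Sox11 cKO cells 1 was called, *Krt90* lower, beside 0.178%. Both keratins called in dcKO cells belong to the simple epithelial class. The median log2 fold change over all 53 genes was -0.01 in Sox4 cKO, -0.01 in Sox11 cKO and 0.08 in dcKO cells, and over all named genes it was 0.00, -0.00 and -0.01. For type I genes the medians were -0.01, -0.04 and 0.08, and for type II genes 0.01, 0.00 and 0.08.

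**Figure D2:**
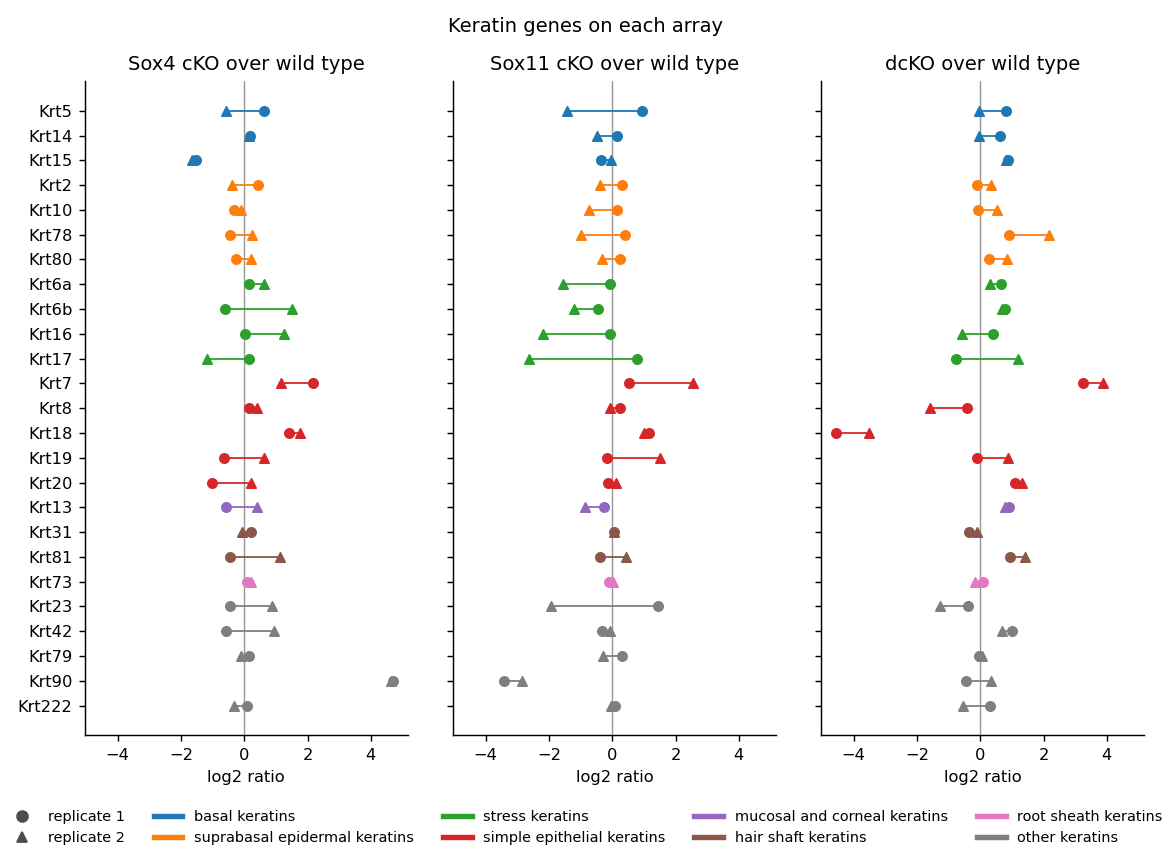
Log2 ratio of knockout over wild type of 25 keratin genes, in rows by class, in a panel for each genotype. Circles are replicate 1 and triangles replicate 2, joined by a line, and the vertical line marks no difference. *Krt20* was above background in dcKO cells and in 1 wild-type channel each of the Sox4 cKO and dcKO arrays, and *Krt90* was not above background in dcKO cells or their wild type. *Krt18*, *Krt7* and *Krt90* have the ratios farthest from 0.

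*Krt18*, the type I keratin of simple epithelia, was higher than wild type in each single knockout and far lower in the double knockout. Its dcKO log2 level was 8.73 on replicate 1, against 13.29 in wild type, and 8.99 on replicate 2, against 12.49. Both dcKO levels lay below all 6 wild-type levels, which ran from 10.59 to 14.60 with a median of 12.33. The log2 fold change was -4.03 ± 0.75 (SD of n = 2 arrays; limma adjusted p = 0.000805), a 16.4-fold lower level. *Krt18* of Sox4 cKO cells stood at 13.50 and 13.95, against 12.09 and 12.17 in wild type, with log2 ratios of 1.41 and 1.77. The mean of 1.59 passed the limit on fold but not that on p (limma adjusted p = 0.056). In Sox11 cKO cells it stood at 15.75 and 11.59, against 14.60 and 10.59, and the log2 fold change was 1.08 ± 0.11 (SD of n = 2 arrays; limma adjusted p = 0.193). On all 4 single knockout arrays the knockout channel was the higher, and on both dcKO arrays it was the lower.

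The change of *Krt18* differed between the double and the single knockouts by its own test. Taken as a contrast of log2 fold changes, dcKO minus Sox4 cKO was -5.62 ± 0.30 (SE; limma adjusted p = 0.00219) and dcKO minus Sox11 cKO was -5.11 ± 0.30 (SE; limma adjusted p = 0.0034). Sox4 cKO minus Sox11 cKO was 0.51 ± 0.30 (SE; limma adjusted p = 0.876) and was not called. The dcKO fall was called without dcKO replicate 1, at -3.55, and without replicate 2, at -4.51. With Feature Extraction's processed signals it was -4.18 and not called (limma adjusted p = 0.158). Neither contrast with a single knockout was called with an offset of 50, at -5.51 and -4.98 (limma adjusted p = 0.0733 and 0.123), or with processed signals, at -5.81 and -5.26 (limma adjusted p = 0.324 and 0.336). Limma called 0 of all named genes in these contrasts in both settings, and 0 in dcKO cells with processed signals.

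*Krt8*, the type II partner of *Krt18* in simple epithelia, moved less and passed no threshold. Its dcKO log2 level was 8.04 against 8.47 in wild type on replicate 1, and 7.92 against 9.53 on replicate 2. The log2 fold change was -1.01 ± 0.83 (SD of n = 2 arrays; limma adjusted p = 0.0889). It was -1.51 with median centring in place of loess, where it was called (limma adjusted p = 0.00704). Median centring called 513 of all named genes in dcKO cells, against 298 with loess. Both dcKO levels of *Krt8* lay below all 6 wild-type levels, the lowest of which, 8.47, came from a dcKO array. In single knockouts the log2 ratios were 0.14 and 0.39 for Sox4 cKO and 0.26 and -0.06 for Sox11 cKO, and the channels of an array lay close together while the arrays ranged from 8.88 to 12.91. The dcKO log2 fold change of *Krt8* minus that of each single knockout was -1.28 for Sox4 cKO and -1.12 for Sox11 cKO (limma adjusted p = 0.164 and 0.256), and both contrasts were called with median centring. That setting called 787 and 608 of all named genes in these contrasts, against 221 and 166 with loess.

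*Krt7*, a type II keratin of glandular and ductal epithelia, was called higher in dcKO cells. On dcKO arrays its log2 level was 12.76 against 9.53 in wild type and 12.54 against 8.67. The log2 fold change was 3.55 ± 0.44 (SD of n = 2 arrays; limma adjusted p = 0.0103), an 11.7-fold higher level. On the Sox4 cKO arrays it was 12.04 against 9.86 and 11.15 against 10.01, and in Sox11 cKO cells 11.60 against 11.06 and 11.59 against 9.04. The single knockouts gave 1.66 ± 0.73 and 1.55 ± 1.42 (SD, n = 2 each), with limma adjusted p-values of 0.389 and 0.394, so neither passed. All 6 knockout levels of *Krt7*, 11.15 to 12.76, lay above all 6 wild-type levels, 8.67 to 11.06. Of 10166 named genes above background in every channel, 9 did so (0.0885%), *Krt7* as 1 keratin among 20. Of the same genes 12 (0.118%) had every knockout level below every wild-type level, 0 of them keratins.

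The contrasts of *Krt7* between dcKO cells and the single knockouts were not called with all arrays in the fit. They were 1.89 ± 0.60 against Sox4 cKO and 2.01 ± 0.60 against Sox11 cKO (SE; limma adjusted p = 0.25 and 0.255). The contrast with Sox4 cKO was called when either Sox11 cKO array was left out, and that with Sox11 cKO when its replicate 2 was left out. Without dcKO replicate 1 the dcKO log2 fold change was 3.62 and without replicate 2 it was 3.48, and neither was called with 1 array left (limma adjusted p = 0.177 and 0.209). It was 3.45 with an offset of 50 and 3.64 with processed signals, not called in either (limma adjusted p = 0.086 and 0.225). With either Sox11 cKO array left out of the fit, *Krt18* and *Krt7* were also called in Sox4 cKO cells, with their log2 fold changes as above.

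**Figure D3:**
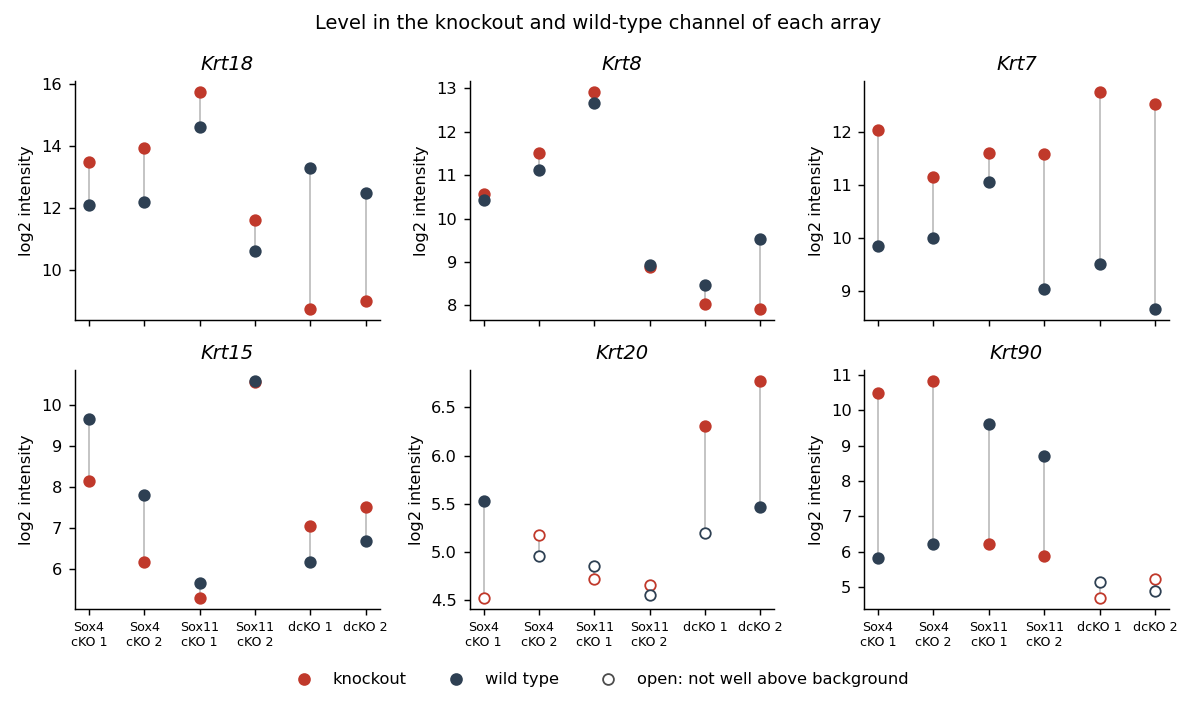
Log2 intensity of 6 keratin genes in the knockout (red) and wild-type (dark) channel of each of 6 arrays, with a grey line joining the channels of an array and open points for channels not well above background. Each panel has its own vertical axis, which does not start at 0. *Krt18* and *Krt7* part widely in dcKO cells and in opposite directions, while the *Krt15* and *Krt8* levels of an array rise and fall together.

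The other simple epithelial keratins were *Krt19* and *Krt20*. *Krt19*, which has a short tail and occurs in ducts and hair follicles, gave log2 ratios of -0.64 and 0.62 in Sox4 cKO, -0.16 and 1.51 in Sox11 cKO, and -0.10 and 0.89 in dcKO cells. The arrays of every genotype differed in sign and the mean changes, -0.01, 0.67 and 0.40, were smaller than the SDs of 0.89, 1.18 and 0.70. *Krt20*, a keratin of gut and Merkel cells, was above background in both dcKO channels, at 6.30 and 6.78, and in no single knockout channel. Wild type on the same arrays stood at 5.20, not above background, and at 5.46, above it. The log2 fold change of 1.21 ± 0.15 (SD of n = 2 arrays; limma adjusted p = 0.0337) passed the limit on p but not that on fold, and without the dye term it did not pass that on p (limma adjusted p = 0.105). Wild-type *Krt20* was above background on 2 of 6 arrays. Over the 5 simple epithelial genes the median log2 fold change was 0.27 in Sox4 cKO, 0.67 in Sox11 cKO and 0.40 in dcKO cells, where the members ran from -4.03 to 3.55.

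*Krt90*, a type II keratin gene, changed in opposite directions in the 2 single knockouts. In Sox4 cKO cells its log2 level was 10.50 on replicate 1 and 10.84 on replicate 2, against 5.80 and 6.20 in wild type. The log2 fold change was 4.67 ± 0.04 (SD of n = 2 arrays; limma adjusted p = 0.00106), a 25.4-fold higher level. In Sox11 cKO cells it was 6.22 and 5.88, against 9.63 and 8.71 in wild type, which gave -3.12 ± 0.41 (SD of n = 2 arrays; limma adjusted p = 0.00636), an 8.7-fold lower level. On the dcKO arrays no channel was above background, with knockout levels of 4.69 and 5.22 and wild-type levels of 5.15 and 4.88. No fold is given there.

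The wild-type level of *Krt90* was not the same across arrays, and the Sox11 cKO arrays stood apart in it. The mean of their wild-type channels lay 3.69 from the median of the other wild-type channels on the log2 scale, whereas the mean of their knockout channels lay 0.57 from it. For the Sox4 cKO arrays the order was the opposite, with the knockout 3.74 and the wild type 0.93 from the median of the others. Both Sox4 cKO levels lay above all 6 wild-type levels. Whether different wild-type cultures account for the Sox11 cKO difference was not tested. All 3 contrasts between genotypes were called for *Krt90*. Sox4 cKO minus Sox11 cKO was 7.79 ± 0.26 (SE; limma adjusted p = 0.000318), dcKO minus Sox4 cKO was -4.72 ± 0.26 (SE; limma adjusted p = 0.00219) and dcKO minus Sox11 cKO was 3.07 ± 0.26 (SE; limma adjusted p = 0.0103). Of these, the ones with dcKO set a ratio between signals at background against a measured one. Without Sox4 cKO replicate 1 the Sox4 cKO value was 4.29 and not called (limma adjusted p = 0.0642), and without replicate 2 it was 5.04 and called (limma adjusted p = 0.0218). Fitted to its own arrays alone, the Sox11 cKO change was not called (limma adjusted p = 0.257). Nor was it called with an offset of 50. With processed signals neither single knockout change and none of the 3 contrasts was called. An offset of 50 left only Sox4 cKO minus Sox11 cKO called among the contrasts. In each of these lost calls, limma called 0 of all named genes.

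Across all keratins, 3 genes were called in dcKO minus Sox4 cKO, *Krt18* and *Krt90* lower and *Krt15* higher, beside 1.03% of all named genes. In dcKO minus Sox11 cKO 2 were called, *Krt18* and *Krt90*, beside 0.777%. In Sox4 cKO minus Sox11 cKO 1 was called, *Krt90*, beside 0.0187%.

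Start regions are shown as RefSeq gives them (build GRCm38.p6, 250 bases before to 50 after the start, 5′ to 3′ on the gene's strand), for *Krt18* and *Krt7*, the keratins called in dcKO cells, *Krt90*, called in both single knockouts, and *Krt8*, the partner of *Krt18*. Capitals mark matches on either strand to ACAAAG or ACAATG, sequences that SOX factors are known to bind, to TGANTCA, the AP-1 motif, or to TATAAA, the TATA box.
Krt90 (chr15:101562901-101563200, - strand): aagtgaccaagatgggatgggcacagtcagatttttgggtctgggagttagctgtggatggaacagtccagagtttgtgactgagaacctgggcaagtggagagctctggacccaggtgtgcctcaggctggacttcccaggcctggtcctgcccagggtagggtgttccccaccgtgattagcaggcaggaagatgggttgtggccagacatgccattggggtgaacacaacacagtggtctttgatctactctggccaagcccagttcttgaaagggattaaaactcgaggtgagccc
Krt18 (chr15:102027966-102028265, + strand): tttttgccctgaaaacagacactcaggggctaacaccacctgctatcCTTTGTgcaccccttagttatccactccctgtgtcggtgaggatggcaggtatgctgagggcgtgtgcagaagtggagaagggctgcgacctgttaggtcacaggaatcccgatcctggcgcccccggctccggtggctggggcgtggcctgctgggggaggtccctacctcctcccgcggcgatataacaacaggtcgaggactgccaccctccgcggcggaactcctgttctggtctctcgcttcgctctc
Krt7 (chr15:101412153-101412452, + strand): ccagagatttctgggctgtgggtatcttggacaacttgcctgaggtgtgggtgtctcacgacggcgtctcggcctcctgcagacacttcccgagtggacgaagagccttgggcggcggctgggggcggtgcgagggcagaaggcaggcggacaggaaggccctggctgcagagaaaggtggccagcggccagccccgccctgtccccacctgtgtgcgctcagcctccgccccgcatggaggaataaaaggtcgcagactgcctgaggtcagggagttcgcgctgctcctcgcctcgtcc
Krt8 (chr15:102004293-102004592, - strand): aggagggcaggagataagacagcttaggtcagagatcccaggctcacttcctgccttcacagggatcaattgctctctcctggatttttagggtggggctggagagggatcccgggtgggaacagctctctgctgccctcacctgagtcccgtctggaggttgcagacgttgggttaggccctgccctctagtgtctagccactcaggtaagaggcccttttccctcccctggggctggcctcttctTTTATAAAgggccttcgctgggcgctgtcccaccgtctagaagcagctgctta

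Of 53 keratin genes, 36 had such a window, 37 windows in all. The *Krt18* window held 1 match to ACAAAG, 203 bases before the start, and those of *Krt90* and *Krt7* held none of the 4 motifs. *Krt8* had a TATAAA match on each strand, which overlap, next to the start. ACAAAG or ACAATG was found in 8 of 37 keratin windows (21.6%), beside 28.6% of all 32851 windows. TGANTCA was found in 5.41% and 7.81%. TATAAA stood in 19 of 37 keratin windows (51.4%) and in 13.6% of all windows, most often 26 to 31 bases before the start, as in *Krt10* at 26. No test was run on these shares, and a match is a string of letters, not a measured binding site.

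*Krt15*, a basal keratin that also marks hair follicle stem cells, fell in Sox4 cKO cells. Its log2 level was 8.15 on replicate 1 and 6.17 on replicate 2, against 9.67 and 7.81 in wild type. The log2 ratios of -1.52 and -1.64 gave -1.58 ± 0.08 (SD of n = 2 arrays; limma adjusted p = 0.0246), a 2.99-fold lower level. In Sox11 cKO cells it stood at 5.31 and 10.56, against 5.68 and 10.59 in wild type, and the change was -0.20 ± 0.24 (SD of n = 2 arrays; limma adjusted p = 0.933). In dcKO cells it was 7.05 and 7.52, against 6.17 and 6.70, and the change of 0.85 ± 0.05 (SD of n = 2 arrays; limma adjusted p = 0.0433) passed the limit on p but not that on fold, and without the dye term neither (limma adjusted p = 0.0625). Wild-type *Krt15* ranged from 5.68 to 10.59 over the arrays. On the Sox4 cKO arrays the wild-type mean lay 2.30 from the median of the other wild-type channels and the knockout mean 0.72 from it.

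The ratios of *Krt15* were close between replicates although its levels were not. The contrast dcKO minus Sox4 cKO was 2.43 ± 0.22 (SE; limma adjusted p = 0.0092) and was called. It was not called with an offset of 50 or with processed signals, where no named gene was. With only the other array left, the Sox4 cKO change was -1.70 without replicate 1 and -1.46 without replicate 2, not called in either case (limma adjusted p = 0.197 and 0.453). An offset of 50 gave -1.33 (limma adjusted p = 0.116) and processed signals -1.87 (limma adjusted p = 0.658), also not called. Nor was it called with dim probes left out, at -1.58 (limma adjusted p = 0.055), or with median centring, at -1.49, where it passed the limit on p (limma adjusted p = 0.0171) but not that on fold.

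The basal pair *Krt5* and *Krt14*, which defines epidermal keratinocytes, was bright in every channel and was not called in any genotype. *Krt14* had knockout log2 levels from 16.28 to 16.84 and wild-type levels from 16.12 to 16.85. Its log2 ratios were 0.19 and 0.14 in Sox4 cKO, 0.15 and -0.48 in Sox11 cKO, and 0.63 and -0.03 in dcKO cells, with limma adjusted p-values from 0.552 to 0.964. *Krt5* had knockout levels from 16.41 to 17.79 and wild-type levels from 16.38 to 17.85. Its log2 ratios were 0.64 and -0.56 in Sox4 cKO, 0.94 and -1.44 in Sox11 cKO, and 0.81 and -0.03 in dcKO cells (limma adjusted p from 0.645 to 0.988).

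The probes of *Krt5* disagreed. Its dimmer probe gave -0.88 and 1.25 in Sox4 cKO, -0.45 and 0.44 in Sox11 cKO, and 0.87 and 1.00 in dcKO cells. On 5 of the 6 arrays the probes thus had opposite signs, and neither probe was called. The files hold no probe sequences, so which keratin transcripts each probe can bind was not tested, and members of this family are alike in sequence. Over the 3 basal genes the median log2 fold change was 0.04 in Sox4 cKO, -0.20 in Sox11 cKO and 0.39 in dcKO cells, where it turned to -0.11 with median centring.

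No suprabasal keratin was called. *Krt10*, the type I keratin of the differentiated layers, had knockout log2 levels from 6.65 to 8.30 and wild-type levels from 7.10 to 8.12. The log2 ratios of *Krt10* were -0.33 and -0.09 in Sox4 cKO, 0.14 and -0.73 in Sox11 cKO, and -0.09 and 0.51 in dcKO cells, and every mean was within 0.30 of 0. A dimmer *Krt10* probe gave 0.30 and -0.17 in dcKO cells, opposite in sign on each array, and was above background there on replicate 2 only. *Krt2*, of the upper epidermis, gave 0.45 and -0.40, then 0.30 and -0.38, and -0.09 and 0.34, so its sign differed between the replicates of every genotype. *Krt80* gave -0.27 and 0.21, then 0.25 and -0.31, and 0.28 and 0.85 in the same order, with a dcKO mean of 0.56 ± 0.41 (SD of n = 2 arrays; limma adjusted p = 0.313).

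*Krt78*, a type II keratin, had the largest dcKO change of the 4 suprabasal genes measured. Its dcKO log2 level was 6.74 against 5.83 in wild type and 9.47 against 7.29, a mean ratio of 1.55 ± 0.90 (SD, n = 2) that was not called (limma adjusted p = 0.115). The single knockouts gave ratios of -0.44 and 0.25 (Sox4 cKO) and of 0.42 and -0.98 (Sox11 cKO). Its dimmer probe gave 0.39 and 1.89 in dcKO cells. With only the dcKO arrays in the fit it passed both limits (limma adjusted p = 0.0178), as it did without either Sox11 cKO array (limma adjusted p = 0.000391). The median over all 7 suprabasal genes was -0.03 in Sox4 cKO, -0.04 in Sox11 cKO and 0.18 in dcKO cells, and over the 4 that were measured it was -0.06, -0.16 and 0.39.

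The stress keratins were on throughout and 0 of 4 were called by limma in any genotype, while *Krt6a* and *Krt16* had an unadjusted p below 0.05 in Sox11 cKO cells. On Sox11 cKO replicate 2 all 4 were lower in the knockout. *Krt17*, a keratin of hair follicles and of wounded epidermis, had log2 ratios of 0.77 on replicate 1 and -2.61 on replicate 2. *Krt16*, its close relative, had -0.07 and -2.18. *Krt6a* had -0.06 and -1.54 and *Krt6b* -0.45 and -1.20. Replicate 1 thus lay closer to 0, or above it, for each of the 4 genes, and the class median of -0.87 rests on replicate 2. *Tchh*, a hair sheath gene, also differed between these arrays, at 0.28 and -6.33, and the melanocyte markers were highest in the wild-type channel of replicate 2. The part of either in these values was not tested. Without Sox11 cKO replicate 1, *Krt6a*, *Krt16* and *Krt17* were at -1.57, -2.24 and -2.78, and with replicate 1 alone they were -0.04, -0.02 and 0.93. Each of these values rests on 1 Sox11 cKO array.

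In the other genotypes the stress keratins had no common sign. The Sox4 cKO log2 ratios were 0.15 and 0.61 for *Krt6a*, -0.60 on replicate 1 and 1.5 on replicate 2 for *Krt6b*, 0.04 and 1.25 for *Krt16*, and 0.14 and -1.17 for *Krt17*. In dcKO cells they were 0.67 and 0.30 for *Krt6a*, 0.79 and 0.70 for *Krt6b*, 0.40 and -0.59 for *Krt16*, and -0.77 and 1.18 for *Krt17*. The class medians were 0.42 and 0.34. A second *Krt6b* probe gave -2.54 on Sox11 cKO replicate 2, 0.08 on replicate 1, and 2.31 and 0.96 in dcKO cells, and its sign was that of the brighter probe on 5 of 6 arrays.

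Beyond these classes, 3 keratins above background had an unadjusted p below 0.05 in dcKO cells with the same sign on both arrays. *Krt81*, a type II hair keratin, had dcKO log2 levels of 9.74 and 10.46, against 8.81 and 9.04 in wild type. Its log2 fold change of 1.17 ± 0.35 (SD of n = 2 arrays; limma adjusted p = 0.0356) passed the limit on p but not that on fold. It did not pass that on p without the dye term (limma adjusted p = 0.261) or with median centring, at 0.64 (limma adjusted p = 0.089). *Krt13* had dcKO ratios of 0.90 and 0.77 (limma adjusted p = 0.186) and *Krt42* of 0.99 and 0.70 (limma adjusted p = 0.228). On Sox4 cKO arrays all 3 were below 0 on replicate 1, at -0.46, -0.58 and -0.57, and above 0 on replicate 2, at 1.12, 0.40 and 0.94. None of the remaining hair shaft and root sheath keratins was called, and most were dim or not detected.

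Wild-type levels of several keratins varied widely from array to array. For 22 keratins above background in all 6 wild-type channels, the range of the log2 level over those channels had a median of 1.61, beside 0.88 for 10699 named genes. The range exceeded 2 for 8 of the 22 (36.4%) and for 7.64% of all. These 8 were *Krt15* at 4.92, *Krt8* at 4.19, *Krt18* at 4.01, *Krt78* at 3.80, *Krt19* at 3.74, *Krt17* at 2.91, *Krt13* at 2.87 and *Krt7* at 2.39. Left out of the 22, as not above background in every wild-type channel, were *Krt23* with a range of 6.34, *Krt90* with 4.75 and *Krt35* with 2.20. At the other end were *Krt31*, a hair keratin, with a range of 0.24, *Krt2* with 0.53 and *Krt14* with 0.73. *Krt31* and *Krt2* were dim, with wild-type levels of 5.57 to 5.81 and 6.18 to 6.70. The background offset narrows differences at such levels, so their small ranges do not show steady expression. The values are a description of these 6 channels, and both dyes are among them.

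**Figure D4:**
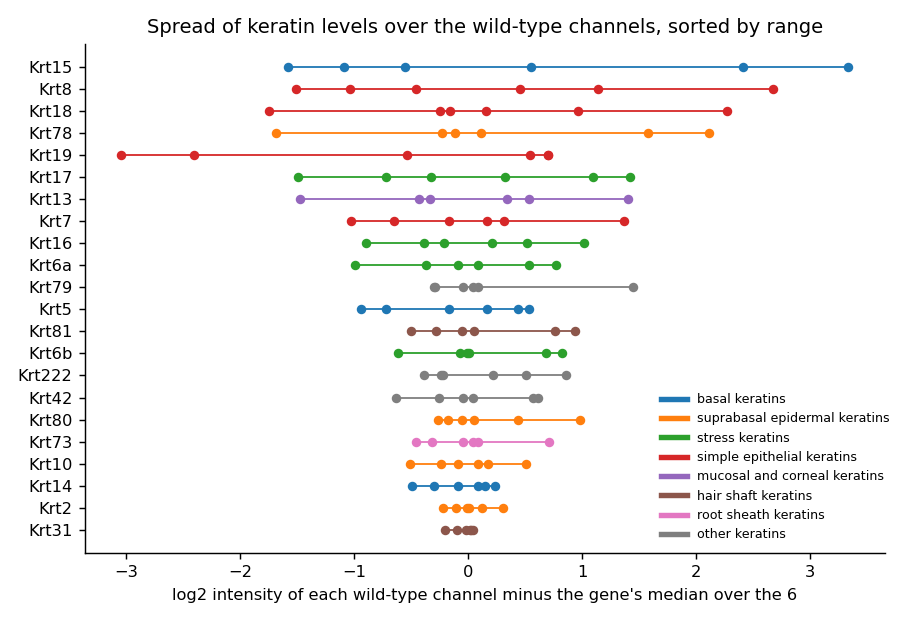
Log2 intensity of each of the 6 wild-type channels minus the gene's median over them, for the 22 keratin genes above background in all 6, sorted by range and coloured by class. *Krt15*, *Krt8* and *Krt18* spread over 4.92, 4.19 and 4.01 log2 units, and *Krt14* over 0.73.

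No gene of the keratin network list was called. The list held plakins and desmosomal plaque proteins, which anchor keratin filaments, with filament-associated and binding proteins, and 15 of its 16 genes had a probe. All 15 were measured, and 0 were called by limma in any of the 3 genotypes. An unadjusted p below 0.05 was found for 4, 3 and 3 of the 15 in Sox4 cKO, Sox11 cKO and dcKO cells. Of 21368 named genes, 2253, 2289 and 4227 had such a p in the same order. The largest changes in the single knockouts were those of *Tchh*, trichohyalin of the hair sheath, in Sox11 cKO cells, with a mean of -3.02 from ratios of 0.28 and -6.33 (limma adjusted p = 0.637), and of the plakin *Dst* in Sox4 cKO cells, at 0.91 ± 0.78 (SD of n = 2 arrays; limma adjusted p = 0.15). For *Dst*, dcKO minus Sox4 cKO was -1.22 ± 0.23 (SE; limma adjusted p = 0.075). In dcKO cells the largest rises were those of *Tchh* at 0.97 ± 0.52, and *Evpl*, the cornified envelope plakin envoplakin, at 0.81 ± 0.26 (SD, n = 2 each; limma adjusted p = 0.84 and 0.0682). The largest falls were those of *Plec*, the linker protein plectin, at -0.59 ± 0.17, and *Pkp2*, a desmosomal plakophilin, at -0.59 ± 0.67 (SD, n = 2 each; limma adjusted p = 0.116 and 0.281).

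Among 16 other intermediate filament genes 1 was called. *Vim*, which encodes the mesenchymal filament protein vimentin, had log2 ratios of -1.63 and -2.90 in Sox4 cKO cells (mean -2.27; limma adjusted p = 0.0341). In dcKO cells *Vim* was at -0.38 ± 0.09 (SD of n = 2 arrays; limma adjusted p = 0.646), and its knockout channels were not above background there. *Nes*, the filament protein nestin, was at -0.97 ± 0.24 and *Bfsp1*, a lens filament protein, at 0.49 ± 1.56 (SD, n = 2 each), while *Nefl*, the light neurofilament, was not above background. The medians over the 16 genes were 0.07, -0.01 and -0.01 in Sox4 cKO, Sox11 cKO and dcKO cells.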

How the data were processed

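RNA of 6 knockout cultures, 2 each of Sox4 cKO, Sox11 cKO and dcKO cells, had been hybridised with wild-type RNA on two-colour Agilent arrays of 62976 spots, all on 1 slide and in 1 scan, so that no batch could be tested. Per the file headers, the deposited values are median spot and background intensities of each channel from Agilent Feature Extraction 11.0.1.1, with its own processed intensities and marks for spots above background, on an array design annotated on mm9. A further table by the authors holds log2 ratios, which per the study's methods came from normexp background correction, loess and ComBat removal of the dye effect, with limma. Its scale and centring are not stated, and its columns correlated with the knockout over wild-type ratios at 0.890 to 0.952, which gives its direction.

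Groups and replicates were taken from the labels. From the intensities, background was corrected with normexp (offset 16), 3671 control spots were left out, each array was normalized by loess, outlier spots were set to missing and spots of a probe were averaged (limma 3.58.1, R 4.3.3). Log2 ratios of all 55681 probes were fitted over all 6 arrays with a term for each genotype and for the dye, and p-values were adjusted by Benjamini-Hochberg over all probes. Since the dye followed the replicate number, the dye term is also a block on that number. Deviations of same-numbered arrays correlated at 0.316, 0.244 and 0.125 between genotypes. Because the dye and the replicate number changed together, a dye effect and a pairing of arrays cannot be told apart here. The fit had 2 residual and 5.36 prior degrees of freedom, and the number of arrays limits the precision. Channel levels were scaled between arrays (Aquantile). Of 29786 probes with a RefSeq accession, 95.1% had a symbol in the RefSeq table. That table holds 54 keratin genes, 1 of which had no probe. A gene is its brightest probe, and it counts as measured where knockout or wild type was above background on both arrays. Values are given for the called members, for basal, suprabasal, stress and simple epithelial members detected in both channels of at least 4 arrays, and for others detected with an unadjusted p below 0.05 and the same sign on both arrays. The members, classes and lists were chosen with earlier results of these data known. The scripts were tested on simulated data. Alternatives changed the offset, signals, normalization, dye term, arrays fitted, filter and probe choice, or left out an array.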

Additional observations from a re-analysis of the deposited data

Results flagged for a closer look

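The results below stand out because the effect of gene loss differed between genotypes by a limma contrast of the difference itself. For *Krt18*, dcKO minus Sox4 cKO was -5.62 and dcKO minus Sox11 cKO was -5.11 on the log2 scale (limma adjusted p = 0.00219 and 0.0034), with both dcKO ratios below 0 and all 4 single knockout ratios above it. Both *Krt18* contrasts lost their call with an offset of 50 (limma adjusted p = 0.0733 and 0.123) and with processed signals (limma adjusted p = 0.324 and 0.336). In both settings limma called 0 of all named genes in these contrasts. The *Krt15* and *Krt90* contrasts with dcKO given below were thus not called there either. With processed signals, Sox4 cKO minus Sox11 cKO of *Krt90* was not called. For *Krt15*, dcKO minus Sox4 cKO was 2.43 (limma adjusted p = 0.0092), with both dcKO ratios above 0 and both Sox4 cKO ratios below it. This *Krt15* contrast was not called when any 1 of the Sox4 cKO or dcKO arrays was left out (limma adjusted p from 0.0573 to 0.0848). For *Krt90*, Sox4 cKO minus Sox11 cKO was 7.79, dcKO minus Sox4 cKO was -4.72 and dcKO minus Sox11 cKO was 3.07 (limma adjusted p = 0.000318, 0.00219 and 0.0103), the last being 2.79 and not called without dcKO replicate 2 (limma adjusted p = 0.0876). Its dcKO ratio was taken between channels not above background, and its wild-type level on the Sox11 cKO arrays lay above that on all other arrays.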

How the results depend on the processing

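Counts of called keratins moved with the background correction and the arrays in the fit. With an offset of 50 they were 1 in Sox4 cKO, 0 in Sox11 cKO, 1 in dcKO, 0 in dcKO minus Sox4 cKO and 0 in dcKO minus Sox11 cKO by limma, where the zeros had 4, 6 and 9 keratins with an unadjusted p below 0.05. That offset called 2, 0, 51, 0 and 0 of all named genes in the same order. With processed signals they were 0 in all 6 comparisons by limma, with 6, 3, 10, 6, 6 and 4 at an unadjusted p below 0.05. Over all named genes the count was 0 there too, in each comparison. Median centring gave 1 in Sox4 cKO, beside 46 of all named genes. Fitting only the arrays compared gave 4 in Sox4 cKO, 0 in Sox11 cKO (4 unadjusted, limma) and 1 in dcKO minus Sox11 cKO. Of all named genes it called 109, 0 and 15 in the same order. Leaving out dim probes, which removes *Krt90* from the fit, gave 0 in Sox4 cKO, Sox11 cKO and Sox4 cKO minus Sox11 cKO by limma (3, 4 and 4 unadjusted), and 1 in dcKO minus Sox11 cKO. *Krt15* stayed in that fit and lost its Sox4 cKO call (limma adjusted p = 0.055). Of all named genes, the fit without dim probes called 6, 8, 3 and 85 in the order given. Leaving out 1 array at a time gave 0 to 4 in Sox4 cKO (11 unadjusted at 0, without its replicate 1), 1 to 6 in Sox11 cKO, 1 to 3 in dcKO, 2 to 6 in dcKO minus Sox4 cKO, 1 to 7 in dcKO minus Sox11 cKO and 1 to 4 in Sox4 cKO minus Sox11 cKO. Every upper end came without Sox11 cKO replicate 1, in some cases also without another array, and the cause was not tested. Without that array the calls over all named genes also rose above those of the main fit, in all 6 comparisons. The upper ends are thus part of an array-wide rise and not a result particular to keratins. That fit leaves 1 Sox11 cKO array. The counts were within 1.5 times the main ones in 59 other cases. In the main fit, 5, 6 and 12 of 53 keratins had an unadjusted p below 0.05 in Sox4 cKO, Sox11 cKO and dcKO cells, beside 2253, 2289 and 4227 of 21368 named genes. In dcKO minus Sox4 cKO, dcKO minus Sox11 cKO and Sox4 cKO minus Sox11 cKO, 9, 12 and 7 keratins did, beside 3771, 3467 and 2032 named genes. The unadjusted counts of the other settings are of keratins alone, with no such share beside them.

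Without the replicate block, which is the fit without the dye term, the keratin counts were 2, 1, 2, 3, 2 and 1, the same as with it. Over all named genes the calls fell, from 34, 38, 298, 221, 166 and 4 with the block to 15, 14, 212, 71, 66 and 1 without it. The block changed the call at the adjusted p for *Krt15*, *Krt20* and *Krt81* in dcKO cells, given above. The *Krt18* fall in dcKO cells ran from -4.58 to -3.55 over all 15 alternatives, with an adjusted p past the threshold in 14. No change called at the adjusted p turned its sign. Over all named genes calls ran from 0 to 109 in Sox4 cKO, 0 to 618 in Sox11 cKO and 0 to 513 in dcKO cells. The planned use of mean spot signals was not run, because the columns used here hold median signals. The cause of these shifts was not tested.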
